A study of Rattus norvegicus with 6 samples.

Results

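The sestrins and the amino acid sensing arm that they control upstream of mTORC1 were followed in rat neuroretina through 10 genes. The genes were the 3 sestrins (Sesn1, Sesn2 and Sesn3), Ddit4, the 3 subunits of GATOR1 (Depdc5, Nprl2 and Nprl3), Mtor, Rptor and Tsc2. They are 10 of the 28358 genes in the deposited tables, and all 10 were among the 13242 genes that passed a filter on low counts and were tested. They were chosen from the fold changes between spironolactone and non-loaded retinas, so their differences in that contrast are given as a description and support nothing further. The tissue was neuroretina from GK (Goto-Kakizaki) rats, a lean strain with spontaneous type 2 diabetes. All were male and 14 months old. Spironolactone, an antagonist of the mineralocorticoid receptor, was given to the first group as one 5 µL injection into the vitreous of PLGA microspheres that held 6.2 µg of the drug (3 libraries). The comparison group received microspheres of the same polymer without drug (3 libraries), and tissue was collected 2 months after injection in both groups. Every retina had therefore been exposed to microspheres, and only this diabetic strain and sex were sampled. Whether the libraries of a group came from separate animals is not stated in the labels, so p-values measure only the spread between these libraries, part of which may be technical.

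mTORC1 is a protein kinase complex, built on the kinase MTOR and the scaffold RPTOR, that promotes protein synthesis and growth and restrains autophagy when amino acids and growth signals are present. It is recruited to the lysosome by Rag GTPases, and GATOR1 switches the Rags off, while GATOR2 opposes GATOR1. As worked out mainly in human and mouse cells, sestrins bind and inhibit GATOR2, and leucine releases Sestrin2 from it. On the growth factor side the TSC complex, which contains TSC2, switches off the mTORC1 activator RHEB, and the product of Ddit4 (REDD1) acts through that complex. Sesn2 and Ddit4 are known targets of the stress factor ATF4, Sesn1 of p53 and Sesn3 of FoxO factors. These inducers are not exclusive to the genes named with them.

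The promoters of the 3 sestrins are shown because these closely related genes did not share the difference described next. Each is the window of 300 bases, 250 before to 50 after the gene's start, in RefSeq on build GRCr8, which is not the rn6 build of the deposited values. Each is written 5′ to 3′ on the strand of the gene, and capitals mark CCAAT boxes, which stand here as ATTGG because they lie on the opposite strand. Positions count from the gene's start. Sesn2 lies at chr5:150005206-150005505 on the minus strand, with boxes that begin at −161 and −97. Sesn1 lies at chr20:46948469-46948768 on the plus strand, with a box at −91. Sesn3 lies at chr8:19415177-19415476 on the plus strand, with boxes at −198, −181 and −139.
Sesn2: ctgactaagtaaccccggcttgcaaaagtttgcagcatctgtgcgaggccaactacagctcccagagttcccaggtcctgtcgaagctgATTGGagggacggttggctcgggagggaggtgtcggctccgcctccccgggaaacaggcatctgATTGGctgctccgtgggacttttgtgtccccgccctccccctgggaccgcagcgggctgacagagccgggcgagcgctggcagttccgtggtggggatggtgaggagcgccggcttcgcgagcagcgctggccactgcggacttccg
Sesn1: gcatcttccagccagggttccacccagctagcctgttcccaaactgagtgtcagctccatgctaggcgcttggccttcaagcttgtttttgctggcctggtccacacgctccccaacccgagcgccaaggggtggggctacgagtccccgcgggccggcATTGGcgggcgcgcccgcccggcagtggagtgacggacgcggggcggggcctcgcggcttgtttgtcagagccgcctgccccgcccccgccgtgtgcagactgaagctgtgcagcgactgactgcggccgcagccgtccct
Sesn3: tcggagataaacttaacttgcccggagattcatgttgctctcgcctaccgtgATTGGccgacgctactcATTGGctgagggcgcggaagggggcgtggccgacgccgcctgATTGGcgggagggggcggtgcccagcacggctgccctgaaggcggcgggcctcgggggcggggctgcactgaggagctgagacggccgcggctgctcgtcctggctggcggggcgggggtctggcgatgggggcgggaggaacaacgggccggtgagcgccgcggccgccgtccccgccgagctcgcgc
The table held a promoter for 9 of the 10 genes (Rptor was not matched). Searched on both strands, CCAAT was found in 5 of the 9, and in 12549 of 33469 promoters of this length (37.5%). The core of the amino acid response element that ATF4 binds, TGATGNAA, also searched on both strands, was found in 0 of the 9 and in 1332 of the 33469 promoters (3.98%). A match describes letters only, and the absence of a match concerns this window alone.

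The libraries held between 9996198 and 12589466 expected counts. Of all tested genes, 348 (2.63%) were called at an adjusted p of 0.05, 247 higher (1.87%) and 101 lower (0.763%) with spironolactone, and for 20.9% the libraries of the groups did not overlap. The summed level of 11 rod markers lay between 47559.5 and 53041.5 TPM with spironolactone and between 59494.5 and 72337.1 TPM in non-loaded retinas, and 6 of the 11 were called lower. Summed markers of cones, Müller glia, ganglion cells, microglia, vessels, pigment epithelium and erythrocytes overlapped between the groups. Among them 1 Müller glia marker was called lower, and 1 vessel and 1 erythrocyte marker were called higher. The erythrocyte markers summed to 684.9, 629 and 373.4 TPM with spironolactone and to 370.7 to 440.2 TPM in non-loaded retinas, and the pigment epithelium markers to 411.4 to 616.6 TPM and 600.8 to 624 TPM in those groups. The lens markers summed to 10.2 to 17 TPM across the libraries, with Mip and Lim2 at 0. In bulk tissue, fewer cells of a type and less RNA per cell cannot be told apart, and the part of cell composition in the values given here was not tested.

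Among the 3 sestrins, Sesn2 differed between the groups and the others did not pass the test. Sesn2 encodes a leucine-binding sestrin. It measured 225.2, 271.7 and 245.5 CPM (counts relative to the library total, adjusted with TMM factors) in the 3 spironolactone libraries and 59.5, 77.8 and 138.6 CPM in the 3 non-loaded libraries. The groups did not overlap: the lowest spironolactone library was 1.62 times the highest non-loaded library. Sesn2 averaged 247.5 ± 23.3 CPM with spironolactone and 91.98 ± 41.4 CPM in non-loaded retinas (SD, n = 3 each). That is a log2 fold change of 1.42 ± 0.19 (SE; 95% interval 1.03 to 1.81) or a 2.67-fold higher level, with an adjusted p of 0.000305 by edgeR's quasi-likelihood test over all 13242 genes. Ordered by p it was gene 32, and by fold among higher genes gene 15, of the 13242.

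The spread of Sesn2 lay mostly in the non-loaded group. The coefficient of variation was 9.42% with spironolactone and 45.1% in non-loaded retinas, where replicate 3 was 2.33 times replicate 1 and 1.78 times replicate 2. The mean of the spironolactone libraries was still 1.78 times that replicate. Leaving out each library in turn gave log2 fold changes of 1.19 (without non-loaded replicate 1) to 1.84 (without non-loaded replicate 3), and adjusted p stayed at or below 0.00911. With robust empirical Bayes shrinkage, which lets genes of unusual spread keep it, the adjusted p was 0.174 at the same fold change. With the number that each sample's title carries entered as a covariate, the log2 fold change was 0.08 (adjusted p = 1). Those numbers are 8, 10 and 11 for spironolactone and 2, 3 and 4 for non-loaded libraries, so whatever they stand for cannot be told apart from the treatment. Over the 16 alternatives tried, adjusted p ranged from 1.37e-18 to 1 and was below 0.05 in 14.

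**Figure D1:**
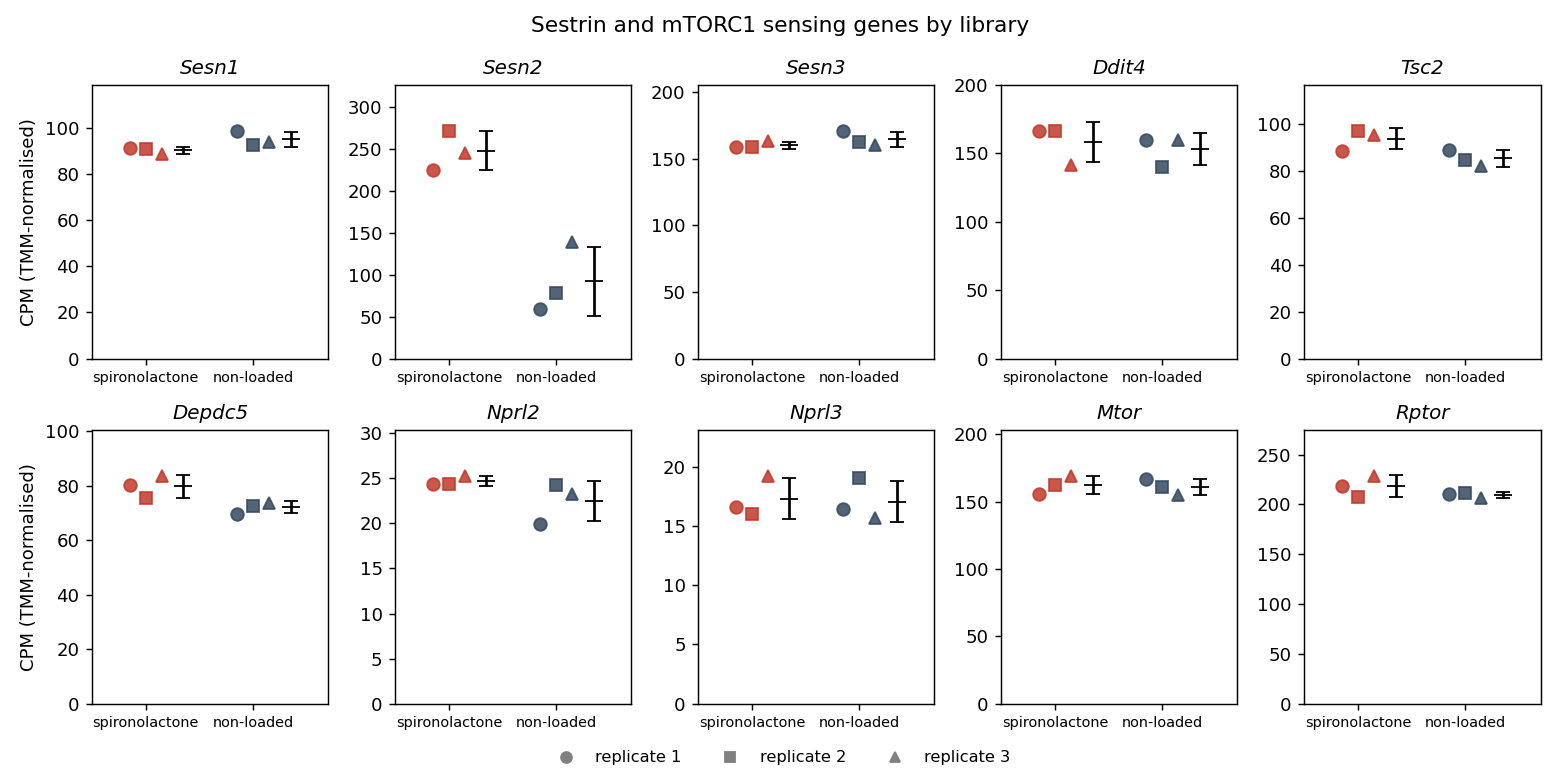
TMM-scaled CPM of each of the 10 genes by library, with spironolactone to the left of non-loaded in each panel, symbols for replicates and bars for mean and SD (n = 3 each). Sesn2 stands at 225.2 to 271.7 CPM with spironolactone and 59.5 to 138.6 CPM in non-loaded retinas, while the other 9 genes lie close together or overlap.

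Sesn1, a p53-responsive sestrin, measured 91.3, 90.6 and 88.4 CPM with spironolactone and 98.7, 92.5 and 93.7 CPM in non-loaded retinas. All spironolactone libraries were below all non-loaded libraries, by a margin smaller than the non-loaded spread. The log2 fold change was −0.07 ± 0.06 (95% interval −0.20 to 0.05, adjusted p = 0.593). Sesn3, a FoxO-responsive sestrin, measured 158.5, 158.5 and 162.8 CPM with spironolactone and 171, 162.1 and 160.4 CPM in non-loaded retinas. The groups overlapped, with a log2 fold change of −0.04 ± 0.06 (95% interval −0.16 to 0.08, adjusted p = 0.788).

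Per length, in TPM (the deposited values, scaled for transcript length and library total), the sestrins changed places. Sesn2 reached 117.9, 136.4 and 124.6 TPM with spironolactone, against 30.1, 38.2 and 71.7 TPM in non-loaded retinas. Sesn3 held 107.5, 103.1 and 107.2 TPM with spironolactone and 112.1, 103.1 and 107.5 TPM in non-loaded retinas, and Sesn1 held 52.3 to 54.5 TPM and 53.5 to 57.4 TPM in those groups. Sesn2 was thus the most abundant sestrin in every spironolactone library, and Sesn3 was in every non-loaded library. In non-loaded replicates 1 and 2 Sesn2 was the least abundant of the family, and in replicate 3 it was above Sesn1. The 3 genes summed to 280, 292.3 and 284.2 TPM with spironolactone and to 199.5, 194.8 and 235.8 TPM in non-loaded retinas (285.5 ± 6.25 and 210 ± 22.4 TPM), a ratio of 1.36. Sesn2 made up 42.1%, 46.7% and 43.9% of that sum with spironolactone and 15.1%, 19.6% and 30.4% in non-loaded retinas. Sesn1 and Sesn3 together gave 162.1, 155.9 and 159.5 TPM with spironolactone and 169.4, 156.7 and 164.1 TPM in non-loaded retinas. The larger family total with spironolactone therefore lay in Sesn2.

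**Figure D2:**
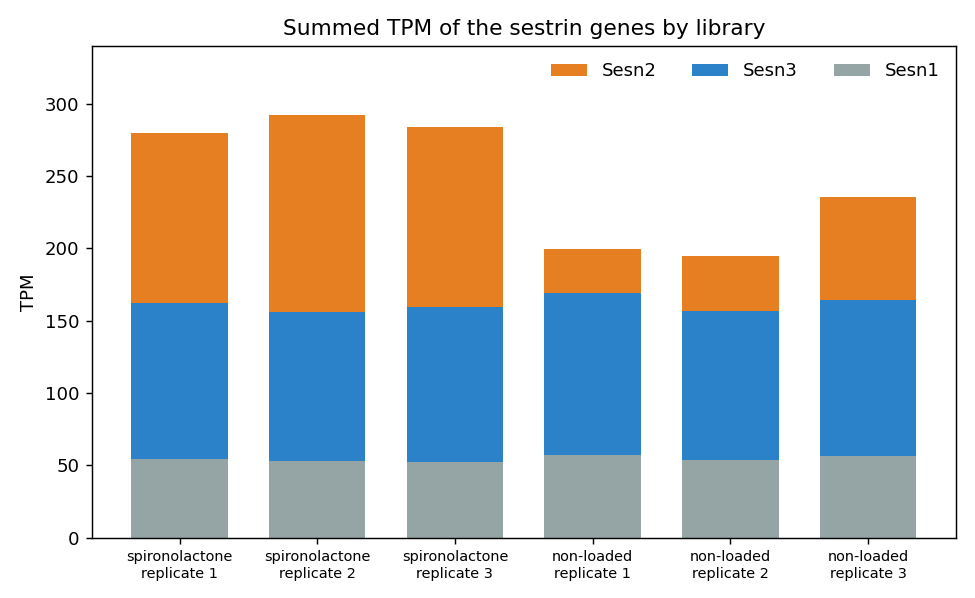
Stacked TPM of the 3 sestrins in each library (Sesn1 at the base, then Sesn3 and Sesn2), spironolactone libraries to the left of non-loaded libraries. Sesn2 holds 42.1% to 46.7% of the sum with spironolactone and 15.1% to 30.4% in non-loaded retinas, and non-loaded replicate 3 has the largest Sesn2 part of its group.

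Ddit4, whose product restrains mTORC1 through the TSC complex, did not follow Sesn2 although both are known ATF4 targets. It measured 166.7, 166.7 and 141.4 CPM with spironolactone and 160, 139.9 and 159.9 CPM in non-loaded retinas. One library of each group was low and the groups overlapped (log2 fold change 0.05 ± 0.07, 95% interval −0.11 to 0.20, adjusted p = 0.816). Ddit4 is also known to respond to hypoxia and glucocorticoids. Tsc2, the GTPase-activating subunit of the TSC complex, measured 88.6, 97.1 and 95.4 CPM with spironolactone and 88.9, 84.5 and 82.2 CPM in non-loaded retinas. Spironolactone replicate 1 fell inside the non-loaded range, and the log2 fold change of 0.14 ± 0.06 did not pass (unadjusted p = 0.0425, adjusted p = 0.294). Tsc2 overlaps Pkd1 on GRCr8, and the strand setting of the counting is not given in the sources used here, so reads of overlapping genes may not be told apart. The same holds for Sesn2, Sesn3, Depdc5 and Mtor, each of which overlaps another annotated gene there.

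The 3 GATOR1 genes, which encode the complex that inactivates the Rag GTPases, held log2 fold changes of 0.02 to 0.15, and none passed. Depdc5 measured 80.2, 75.5 and 83.7 CPM with spironolactone and 69.6, 72.8 and 73.8 CPM in non-loaded retinas. Every spironolactone library was above every non-loaded one, by 1.02 times at the nearest (log2 fold change 0.15 ± 0.07, 95% interval 0.01 to 0.28, unadjusted p = 0.040, adjusted p = 0.285). Nprl2 measured 24.4, 24.4 and 25.3 CPM with spironolactone and 19.9, 24.2 and 23.3 CPM in non-loaded retinas. These groups also did not overlap, but the highest non-loaded library lay just under the lowest spironolactone one (0.13 ± 0.10, adjusted p = 0.582). Nprl3 had the fewest counts of the 10 genes, 162 to 218 per library. It measured 16.6, 16 and 19.2 CPM with spironolactone and 16.4, 19 and 15.7 CPM in non-loaded retinas, with overlap and a log2 fold change of 0.02 ± 0.12 (adjusted p = 0.961).

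The kinase gene Mtor measured 155.4, 162.2 and 169.3 CPM with spironolactone and 166.5, 161.1 and 155.1 CPM in non-loaded retinas. The groups covered nearly the same range (log2 fold change 0.01 ± 0.06, 95% interval −0.11 to 0.14, adjusted p = 0.952). Rptor, the substrate-binding scaffold of mTORC1, measured 218.8, 207 and 228.9 CPM with spironolactone and 210.7, 211.2 and 206.1 CPM in non-loaded retinas (0.06 ± 0.06, 95% interval −0.06 to 0.18, adjusted p = 0.673). The spironolactone libraries of Rptor lay both inside and above the non-loaded range. Of the 10 genes, 1 was called, beside 2.63% of all genes, and 4 did not overlap between groups (Sesn2, Depdc5 and Nprl2 higher, Sesn1 lower), beside 20.9% of all genes. Since these differences chose the genes, nothing is read from those counts. Of the 9 genes that edgeR did not call, 2 (Depdc5 and Tsc2) had an unadjusted p below 0.05, beside 2098 of all 13242 genes. DESeq2 called 0 of the 9, beside 422 of the 8364 genes to which it gave an adjusted p.

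In the order of levels, Ddit4 was the most abundant of the 10 genes in both groups, at 185.6 ± 18.5 TPM with spironolactone and 177.6 ± 17.4 TPM in non-loaded retinas. With spironolactone it was followed by Sesn2 (126.3 TPM), Sesn3 (105.9), Rptor (61.1), Sesn1 (53.2), Mtor (35.4), Nprl2 (32.8), Tsc2 (31.2), Depdc5 (27.4) and Nprl3 (14.4). No neighbours in that order had overlapping libraries. In non-loaded retinas Ddit4 was followed by Sesn3 (107.6 TPM), Rptor (57.8), Sesn1 (55.8), Sesn2 (46.7), Mtor (34.6), Nprl2 (29.5), Tsc2 (28), Depdc5 (24.4) and Nprl3 (14.1). There the libraries overlapped between Rptor and Sesn1, Sesn1 and Sesn2, Sesn2 and Mtor, and Nprl2 and Tsc2. By group means, Sesn2 thus stood next to Ddit4 with spironolactone and between Sesn1 and Mtor in non-loaded retinas. By the same means the order of the other 9 genes was the same in both groups. Among non-loaded libraries Sesn2 held that place only in replicate 2 (38.2 TPM). It was below Mtor in replicate 1 (30.1 against 35.9 TPM). In replicate 3 it was above Sesn1 and Rptor (71.7 against 56.6 and 58.3 TPM).

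The deposited gene length, which RSEM averages over transcripts by their abundance, is a measure that did not choose the genes. It can move only for the 5 genes with more than 1 transcript. It averaged 3256.3 ± 34.3 bases for Sesn1 with spironolactone and 3230.6 ± 41.5 bases in non-loaded retinas (two-sided exact permutation p = 0.4). For Mtor it was 8556 bases in all 3 spironolactone libraries and 8540.5 ± 17.3 bases in non-loaded retinas (exact permutation p = 0.4). Nprl3 and Tsc2, like Sesn1, differed by less than the SD of either group. Depdc5 differed by 8 bases, with an SD of 26.8 bases with spironolactone and 5.6 bases in non-loaded retinas. All 5 adjusted p were 0.8. With 3 libraries against 3 the smallest p this test can give is 0.1, so no shift in transcript use was detectable at this size, nor could one have passed.

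Beyond the 10 genes, 125 other genes of the pathway, in 10 lists by role, were tested in the same fit. Of these, 3 were called higher (2.4%) and 0 lower, against 1.87% and 0.763% of all genes, and their median log2 fold change was −0.01, against 0.00 for all genes. An unadjusted p below 0.05 was reached by 30, beside 2098 of all 13242 genes. DESeq2 gave an adjusted p to 113 of the 125 and called 4, of which 1 was lower. Over all genes it called 422 of the 8364 with an adjusted p. The libraries of the groups did not overlap for 39 (31.2%, 14 higher and 25 lower), beside 20.9% of all genes.

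Of 10 other nutrient sensors, 2 were called higher and 0 lower. Log2 fold changes in this list reached down to −0.42. The groups did not overlap for 4 of the 10 (2 higher and 2 lower), beside 20.9% of all genes. Lars encodes the cytosolic leucyl-tRNA synthetase, which has also been described in human cells as a leucine sensor for mTORC1. It measured 183.2, 192.7 and 239.6 CPM with spironolactone and 109.4, 102.8 and 120.2 CPM in non-loaded retinas. All spironolactone libraries were well above the non-loaded range (log2 fold change 0.89 ± 0.09, adjusted p = 1.55e-05). Fnip2, a folliculin partner that acts on the Rag GTPases, measured 273.8, 255.1 and 276.3 CPM with spironolactone and 222.2, 199.5 and 235.2 CPM in non-loaded retinas (0.29 ± 0.07, adjusted p = 0.0231). That call was lost without non-loaded replicate 1 (adjusted p = 0.083) or 2 (0.146) and without spironolactone replicate 2 (0.0706) or 3 (0.0931).

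Of 21 mTORC1 effectors, 1 rose. Larp1, which binds and represses the mRNAs of ribosomal proteins when mTORC1 is off, measured 116, 117.5 and 122.7 CPM with spironolactone and 94.1, 95.2 and 100.3 CPM in non-loaded retinas. The groups were tight and apart (log2 fold change 0.30 ± 0.06, adjusted p = 0.01). The call was lost without non-loaded replicate 1 (adjusted p = 0.0637) or 2 (0.0612) and without spironolactone replicate 2 (0.0645). Eif4ebp1, which encodes a repressor of translation that mTORC1 inactivates and which is also on the list of ATF4 targets, was low, at 3.64 ± 1.02 CPM with spironolactone and 2.35 ± 0.812 CPM in non-loaded retinas, with overlap (0.61 ± 0.31, adjusted p = 0.365). It was named after its value was seen. Of the 21 effectors, 11 did not overlap between groups (52.4%, 7 higher and 4 lower), beside 20.9% of all genes (1515 higher and 1256 lower of 13242).

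The other 8 lists held 0 of 94 genes called by edgeR. Of these genes 20 had an unadjusted p below 0.05, beside 2098 of all 13242 genes. DESeq2 called 1, beside 422 of 8364 over all genes. For 7 of these lists the gene of smallest p is given. Among 17 subunits of the vacuolar ATPase, the lysosomal proton pump, Atp6v0e2 had a log2 fold change of −0.23 ± 0.06 (edgeR adjusted p = 0.0798, DESeq2 adjusted p = 0.047). Among 27 autophagy and lysosome genes, Gabarapl2, which encodes a protein of the autophagosome membrane, had −0.21 ± 0.07 (0.164). In that list 9 genes (33.3%) did not overlap between groups, all lower with spironolactone, beside 20.9% of all genes in either direction and 1256 of 13242 genes that were lower. Among the upstream genes, Lamtor5 of the Rag and Ragulator list (7 genes) had −0.22 ± 0.10 (0.275), and Wdr59 of GATOR2 (4 genes), the target of the sestrins, had −0.03 ± 0.07 (0.882). The remaining smallest-p genes were Mlst8 among 10 mTOR complex subunits (−0.18 ± 0.06, adjusted p = 0.156), Btrc among 21 growth factor and energy inputs (0.18 ± 0.05, 0.0953) and Rhebl1 among 4 genes of the TSC and Rheb list (0.39 ± 0.24, 0.462). Without spironolactone replicate 1, 4 vacuolar ATPase genes were called lower, named here after their values were seen: Atp6ap2 (−0.24), Atp6v0b (−0.35), Atp6v0e2 (−0.26) and Atp6v1b2 (−0.22). Without that library the genes called lower over the whole table were 200 of 13437, against 101 of 13242 with it.

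**Figure D3:**
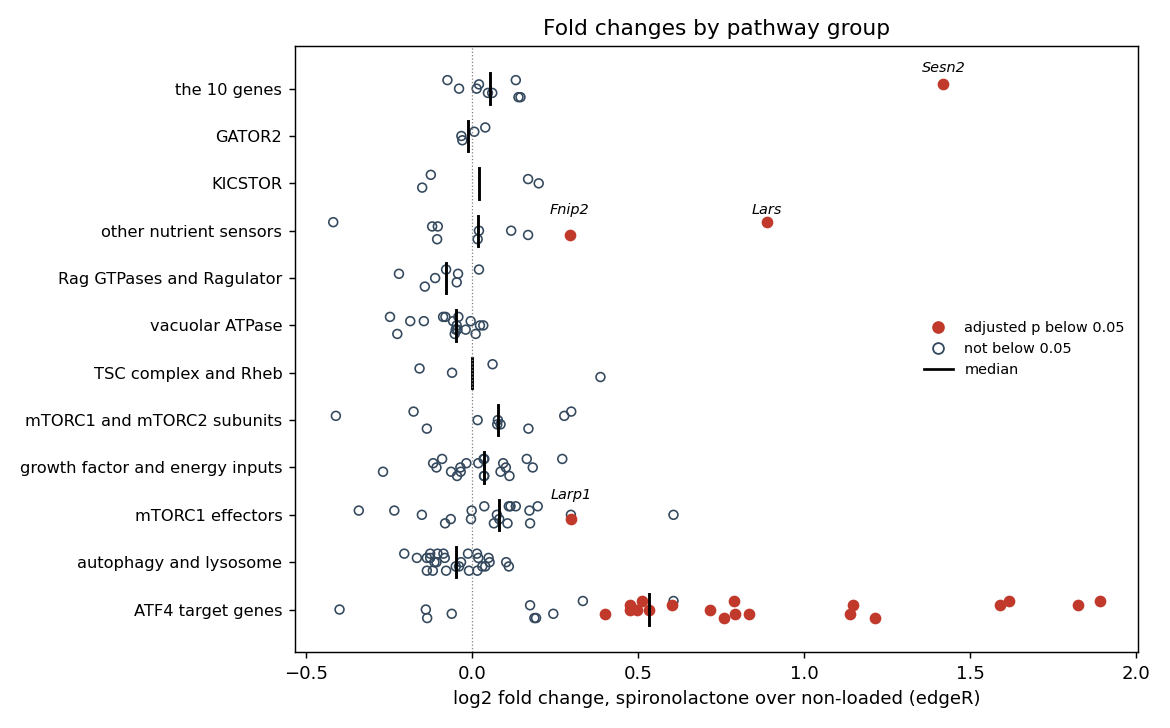
Log2 fold change (spironolactone over non-loaded) of the 10 genes and of the wider pathway genes by list, with ATF4 targets in the lowest row, each point a gene, filled points those called at an adjusted p of 0.05 and bars the median of a list. Above that row Sesn2 at 1.42 and Lars at 0.89 are the points farthest from 0, and most other genes lie near 0.

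The genes nearest to Sesn2 in profile, by the root mean square difference of centred log2 CPM over the 6 libraries, were Jun (0.13), Atf3 (0.14), Gpt2 (0.20), Asns (0.20) and Cars (0.21), where the profile of Sesn2 itself had an SD of 0.92. Jun and Atf3 encode stress-induced transcription factors, Gpt2 an alanine aminotransferase, Asns asparagine synthetase and Cars cysteinyl-tRNA synthetase. Jun measured 532.5, 505.5 and 591.3 CPM with spironolactone and 119.4, 171 and 317.5 CPM in non-loaded retinas (log2 fold change 1.42 ± 0.21). Atf3 measured 120.6, 145.7 and 135.1 CPM with spironolactone and 41.8, 46.8 and 83.4 CPM in non-loaded retinas (1.21 ± 0.16). Gpt2 measured 9.8, 12.4 and 14.5 CPM with spironolactone and 2.93, 3.84 and 5.26 CPM in non-loaded retinas (1.59 ± 0.21). These genes were picked for their likeness to Sesn2 over the same 6 libraries, so what they share with it follows from the choice. All 5 were called higher, with adjusted p between 5.26e-06 and 0.000945. In all 5, as in Sesn2, non-loaded replicate 3 was the highest of its group, at 1.63 to 2.66 times replicate 1. For Ddit4 the nearest genes were Cept1 (0.02), Alkbh3, Capn15, Znrf1 and Fbxl6 (each 0.03), none of them called, beside an SD of 0.11 for its profile.

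**Figure D4:**
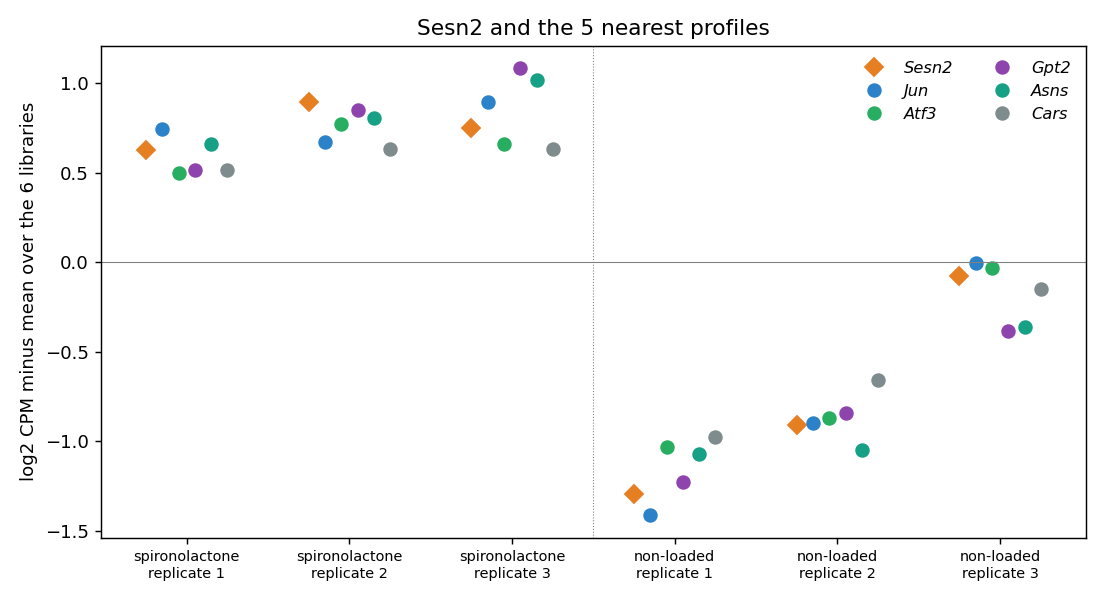
Log2 CPM minus each gene's mean over the 6 libraries for Sesn2 (diamonds) and its 5 nearest genes (circles), spironolactone libraries to the left. All 6 genes are above their mean in the 3 spironolactone libraries and at or below it in the 3 non-loaded ones, where replicate 3 lies nearest to the mean.

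The members have several known inducers and may share them. Lists of the targets of those inducers were therefore counted in the same fit, in which 1.87% of all genes were called higher and 0.763% lower. Of 29 ATF4 targets other than Sesn2 and Ddit4, 19 were called higher and 0 lower (median log2 fold change 0.53), with Slc7a1 (1.89 ± 0.12), Asns (1.62 ± 0.14) and Slc38a2 (0.83 ± 0.08) of smallest p. DESeq2 called 16 of the 29, beside 422 of the 8364 genes to which it gave an adjusted p. Log2 fold changes were positive for 25 and reached down to −0.40. The groups did not overlap for 25 genes (86.2%, 23 higher and 2 lower), beside 20.9% of all genes. This list, like the others, was written with earlier results of these data known. The mean centred log2 CPM of the 29 genes was 0.30, 0.38 and 0.32 with spironolactone and −0.50, −0.40 and −0.11 in non-loaded retinas, again with non-loaded replicate 3 highest of its group. Of 23 p53 targets, 0 were called higher and 1 lower: Ccng1, cyclin G1, at 296.5, 294.6 and 274.4 CPM with spironolactone and 420.9, 401.3 and 371 CPM in non-loaded retinas (−0.46 ± 0.06, adjusted p = 0.000338). Of the 23, 7 had an unadjusted p below 0.05 by edgeR, beside 2098 of all 13242 genes, and DESeq2 called 1. The groups did not overlap for 8 of them (34.8%, 1 higher and 7 lower), beside 20.9% of all genes. Of 20 FoxO factors and targets edgeR called 0, with 2 at an unadjusted p below 0.05 and 0 called by DESeq2. Of 20 hypoxia targets 1 was called higher, Vegfa (0.44 ± 0.06), and 1 lower, Ldha, the lactate dehydrogenase gene (−0.37 ± 0.08). Of 18 corticoid targets 2 were called higher, Klf9 (0.35) and Fkbp5 (0.41), and 1 lower, Arl4d (−0.36). No difference between lists was tested.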

How the data were processed

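RNA of 6 neuroretina samples, 3 per group, was sequenced from stranded mRNA libraries, per the labels' protocols. Per the submitters' processing notes, which state no roles, the build was rn6 and the tools were RSEM 1.2.28, STAR 2.5.3a, Trimmomatic and FastQC. For the annotation version and the strand setting, nothing is given in the sources used here. Per the file headers, the authors deposited RSEM gene tables with unnormalised expected counts, which share multi-mapped reads by likelihood, so reads of similar genes are less certain. The deposited tables also hold TPM, used for levels between genes and in an alternative, FPKM, not used here, and transcript and effective lengths.

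Expected counts were rounded and genes kept by filterByExpr, which retained at least 99.9% of each library's counts. Groups were compared with edgeR 4.0.16 under R 4.3.3 by a two-sided quasi-likelihood test (glmQLFit and glmQLFTest, TMM scaling). P-values were adjusted by Benjamini-Hochberg across 13242 genes, at a threshold of 0.05. The SE is the size of the log2 fold change over the square root of F, and positive values mean higher with spironolactone. Alternatives were RLE and total scaling, no filter, 1 CPM in all libraries, robust shrinkage, an effective length offset, the title number as a covariate, DESeq2 1.42.0, log2(TPM + 1) and log2(TPM + 0.1) with limma 3.58.1, and each library left out.

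The 10 genes and all lists were chosen with earlier results of these data known. Besides them the text names, per pathway list, up to 4 called genes of smallest p or else the gene of smallest p, per list of inducer targets up to 3 called genes, and the 5 nearest profiles of Sesn2 and Ddit4. Of 353 list names 12 were not matched and are not analysed here. An item that the rule names is not reported here, though counts include it. Promoters are from RefSeq (GRCr8) by symbol.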

Additional observations from a re-analysis of the deposited data

How the results depend on the processing

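No paired analysis was possible because the labels give the groups no shared replicate numbers. Replicates 1, 2 and 3 in this text follow the order of the title numbers within each group. Those are 2, 3 and 4 for non-loaded and 8, 10 and 11 for spironolactone libraries. The same replicate number links no libraries across groups. Over all genes, 348 calls (247 higher, 101 lower) became 602 with no filter, 100 (82 and 18) with log2(TPM + 1), 95 (79 and 16) with log2(TPM + 0.1) and 0 with the title number as a covariate, where 562 genes had an unadjusted p below 0.05; leaving out each library gave 111 (without spironolactone replicate 2) to 621 (without spironolactone replicate 1), and 124, 157 and 146 without non-loaded replicates 1 and 2 and spironolactone replicate 3. Of the 10 genes, the 1 call became 0 with robust shrinkage and 0 with the title number, and stayed 1 to 1 with each library left out. The 3 calls in the wider pathway became 0 with the title number, 1 with log2(TPM + 1) and 1 with log2(TPM + 0.1), and 1 to 7 with each library left out. The sestrin sum differed by 67.9 to 88.3 TPM with each library left out.

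With the title number as a covariate the log2 fold change of Sesn3 came to 0.00 and these reversed: Sesn1 0.066, Nprl2 −0.15, Nprl3 −0.19, Mtor −0.07, Atp6v0e2 0.18, Rhebl1 −0.017 and Gabarapl2 0.33. With a library left out, Nprl3 ranged from −0.066 to 0.106, Mtor from −0.021 to 0.043, Ddit4 from −0.016 to 0.119 and Wdr59 from −0.080 to 0.013. The cause was not tested. Low counts limit Rhebl1 (37 to 69 per library) and Nprl3 (162 to 218).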
